A study of Homo sapiens with 6 samples.

Results

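The genes described here encode heat-shock proteins, chiefly of the cytosol and mitochondria, their co-chaperones (with 4 genes of the endoplasmic reticulum), both chaperonins and the heat-shock transcription factors HSF1 and HSF2. They were 53 genes of the 60691 in the table, taken from a list of symbols drawn up by protein family. That list was made with earlier results of these data known. Each symbol matched 1 gene except HSPA14, which labelled 2, and the one that the gene table in use here still calls HSPA14 was taken. RNA was sequenced from SW1353 cells, an established human chondrosarcoma line, in 6 libraries of 2 groups. The 3 shfirefly libraries carried a lentiviral hairpin against firefly luciferase, which human cells lack, and the 3 shSIRT1 libraries a lentiviral hairpin labelled for SIRT1, a deacetylase that uses NAD+. Cells of both groups spent 48 h in 3% oxygen after seeding, so no library represents ordinary oxygen. Each group rests on a single hairpin in a single line, and knockdown was partial. The comparison was made to learn how SIRT1 bears on transcription by HIF-2α, the product of EPAS1.

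SIRT1 read 26.0, 24.8 and 24.0 CPM (counts scaled to a common library size) with shfirefly and 12.9, 13.2 and 14.7 CPM with shSIRT1. The groups did not overlap, and the log2 fold change was -0.88 ± 0.07 (SE, adjusted p = 2.3e-09, edgeR quasi-likelihood test, Benjamini-Hochberg). EPAS1, which the treatment protocol names in place of SIRT1, read 477, 483 and 409 CPM with shfirefly and 245, 226 and 227 CPM with shSIRT1. It also fell (log2 fold change -0.97 ± 0.06 SE, adjusted p = 5.8e-07, edgeR), so these levels do not settle which of the genes the hairpin was made for. Libraries held 24993064 to 32044191 counts. Of 12 chondrocyte markers the regulator SOX9 was present (43.7 and 53.1 CPM, group means) and aggrecan was low (ACAN, 1.51 and 0.679 CPM). Type II collagen was nearly absent (COL2A1, 0.0340 and 0.332 CPM) and COL9A1 had no read in any library. Markers of epithelial, blood, endothelial, muscle and neural cells, 12 in all, summed to 5.07 to 5.45 CPM with shfirefly and 4.99 to 5.74 CPM with shSIRT1.

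Chaperones bind unfolded stretches of protein and release them in cycles driven by ATP. HSP70 proteins receive clients from J-domain proteins, which trigger their ATP hydrolysis, and exchange factors then eject the nucleotide. HSP90 takes over partly folded kinases, receptors and transcription factors with help from its own co-chaperones, and the cytosolic chaperonin TRiC encloses actin, tubulin and other proteins in a chamber. Heat and other insults to protein folding release HSF1 from repression, and HSF1 then binds heat-shock elements, arrays of inverted GAA units, in chaperone promoters. SIRT1 is known to deacetylate HSF1 and prolong its stay on such promoters, and HSP90 is known to stabilise HIF alpha subunits.

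Most chaperone genes were higher in shSIRT1. Of the 53 genes 51 had enough reads to be tested, and 39 of these rose, 2 fell and 10 did not pass the test at an adjusted p under 0.05. Among all 16591 genes tested, 26.8% rose and 26.0% fell, against 76.5% and 3.92% of the tested chaperone genes. Scaling by library totals alone put the all-gene median at a log2 fold change of 0.13 and changed the split of all genes from 4449 higher and 4311 lower to 6225 and 3021, and that of the chaperone genes to 46 higher and 1 lower. In such bulk libraries more RNA per cell and more cells of a given state cannot be told apart. The median log2 fold change was 0.40 for the chaperone genes and 0.00 for all genes tested. Rises of at least 1.5-fold were found for 19 chaperone genes (37.3% of those tested), where 7.32% of all genes rose by that much, and no chaperone gene fell that far, against 9.52% of all genes. CPM ranges of the groups were apart for 45 chaperone genes, or 88.2%, against 59.7% of all genes. The largest rises were those of HSPH1, HSPA1B, BAG2, CHORDC1 and HSPA1A, each more than 2-fold, and the genes that fell were DNAJB2 and DNAJB9. The members not tested were HSPA2, with 2 to 7 counts a library, and DNAJA4, with 0 counts in all 6 libraries, which allows a level of up to 0.0968 to 0.115 CPM (3 counts, counting error only). DNAJA4 overlaps 3 genes on the other strand, and whether counting removed reads of it was not tested, so this limit holds for counted reads alone. In the authors' deposited table all 51 tested genes had the same sign, and 40 of the 41 called here had an adjusted p under 0.05.

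**Figure D1:**
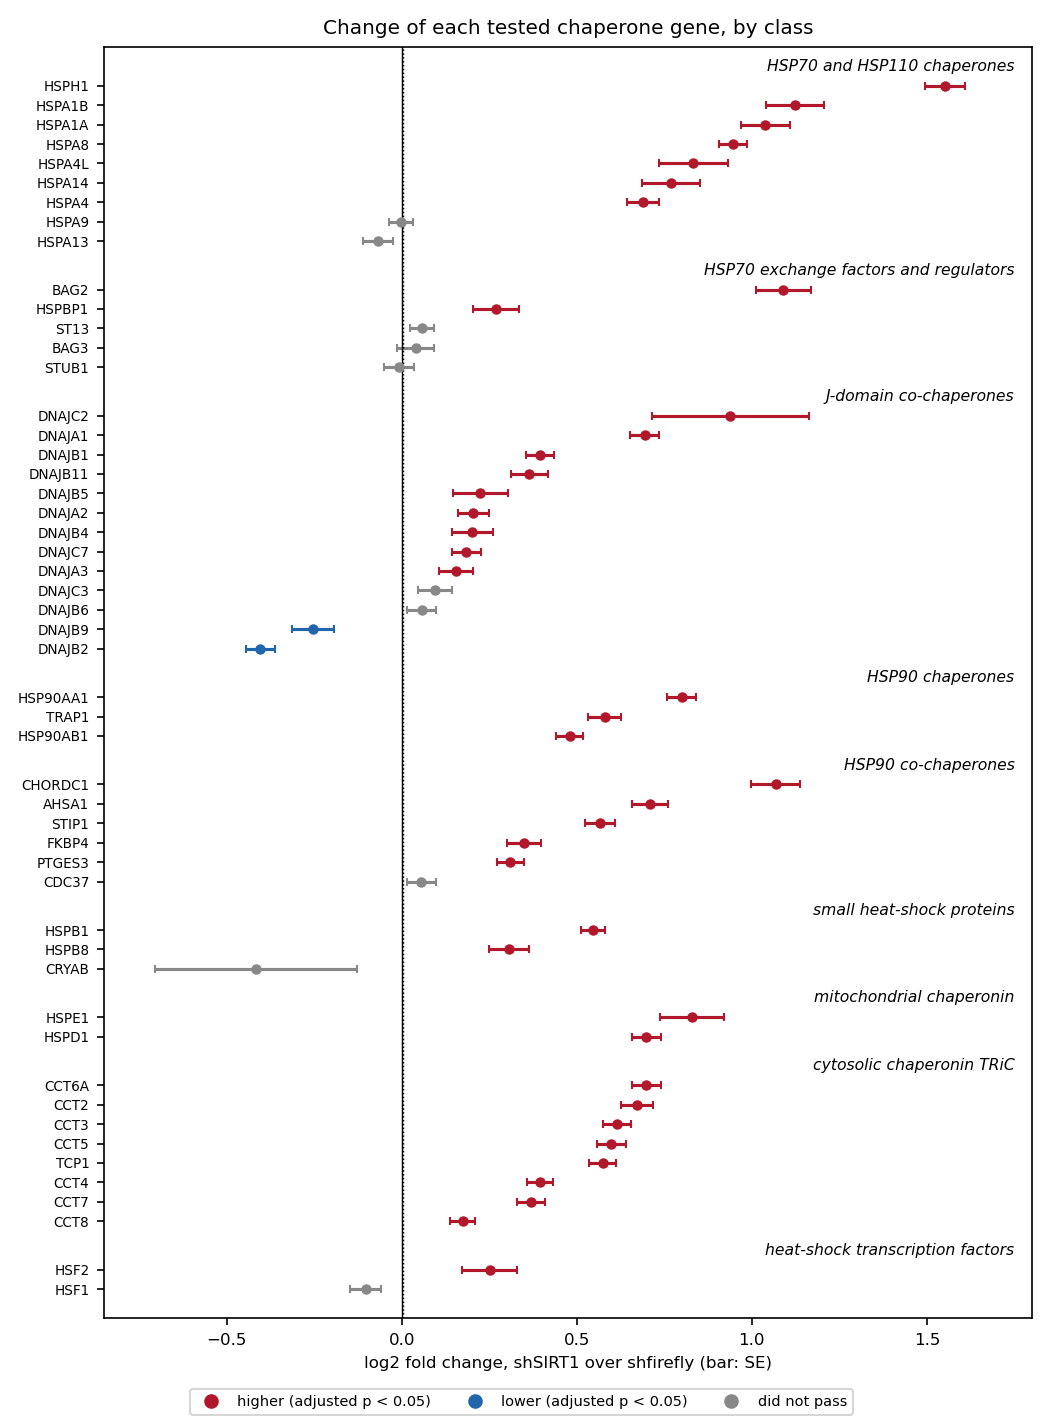
Log2 fold change of shSIRT1 over shfirefly (x axis) for each of the 51 tested chaperone genes, grouped by class, with bars of 1 SE. Red points rose, blue points fell and grey points did not pass. The dotted line marks the median of all genes tested, and all 8 TRiC genes lie to its right.

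Promoters were read for heat-shock elements because several chaperones moved together. RefSeq promoter windows (GRCh38.p14), from 250 bases before to 50 bases after each annotated start, were present for 46 of the 53 genes. A run of 3 heat-shock units, in which GAA and its inverse TTC alternate with any 2 bases between them, was sought on both strands. It was found in 7 of these 46 genes (15.2%) and in 166 of 27305 genes with a window (0.608%). Such elements are known from chaperone promoters, so an excess could follow from the choice of genes alone. The 27305 genes were not limited to those tested here. Of the 7 chaperone genes with the run 6 rose (85.7%) and DNAJB6 did not pass, while 30 of the 37 tested chaperone genes whose window lacked it also rose (81.1%). The looser pair GAANNTTC or TTCNNGAA, which every run of 3 units also contains, was found in 21 of 46 genes (45.7%) and in 16.2% of all genes. HSPH1, which rose the most, had neither form in its window. Each stretch below is 30 bases, 5′ to 3′ on the gene's strand, with the match in capitals. The first 9 carry runs of 3 units or longer, and the last 2, from the near-identical genes HSPA1A and HSPA1B, carry a single pair of units in almost the same surroundings.
HSPA8, chr11:123062171-123062200, reverse strand: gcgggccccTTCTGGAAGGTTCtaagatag
HSPA8, chr11:123062346-123062375, reverse strand: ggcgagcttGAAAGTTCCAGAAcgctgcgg
HSP90AA1, chr14:102087112-102087141, reverse strand: ggagggttcTTCCGGAAGGTTCgggaggct
HSP90AB1, chr6:44247769-44247798, forward strand: gggagcaggTTCTGGAAGATTCatgggctc
HSP90AB1, chr6:44247822-44247851, forward strand: ctgagattgTTCTGGAAGCTTCtggattct
HSPD1, chr2:197500061-197500090, reverse strand: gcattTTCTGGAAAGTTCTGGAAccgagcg
DNAJA1, chr9:33025267-33025296, forward strand: cgccgggcgGAACTTTCCAGAAcgctcggt
DNAJB6, chr7:157336864-157336893, forward strand: aagagccgaGAACCTTCGCGAAggtggggc
CHORDC1, chr11:90223084-90223113, reverse strand: accgGAAAATTCGCGAAGGTTCCTGAAacg
HSPA1A, chr6:31815426-31815455, forward strand: cgaaaaccctgGAATATTCccgacctggca
HSPA1B, chr6:31827622-31827651, forward strand: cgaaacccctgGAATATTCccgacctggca
CHORDC1 had the longest array, in which 3 overlapping matches spanned 23 bases, centred 48 bases before its start. Matches lay 48 and 223 bases before the start of HSPA8, 81 before that of HSP90AA1, and 158 and 105 before a start of HSP90AB1. The match of HSPD1 lay 236 bases before one of its starts, that of DNAJB6 124 bases before and that of DNAJA1 9 bases after its start. A match is a stretch of letters and says nothing of binding in these cells. The endoplasmic reticulum stress element, CCAAT and CCACG with any 9 bases between them on either strand, was in none of the 46 genes and in 0.0916% of all genes. The CCAAT box alone, which that element contains, was in 39.1% of the 46 genes and in 39.7% of all genes.

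Among the HSP70 and HSP110 chaperones chosen here 7 of 9 tested genes rose and 2 did not pass, where 26.8% of all genes rose. HSPA5 and HYOU1, counted in the list of endoplasmic reticulum folding genes, fell (log2 fold changes -0.38 and -0.25). HSPH1 encodes HSP110, which acts as an exchange factor for HSP70 and helps to dissolve aggregates. Its level was 71.7, 72.4 and 84.2 CPM with shfirefly and 213, 229 and 227 CPM with shSIRT1, so that the lowest shSIRT1 library lay far above the highest control. That was a 2.93-fold rise (log2 fold change 1.55 ± 0.06 SE, adjusted p = 3.2e-11, edgeR). HSPH1 lies on the reverse strand of chromosome 13 (31134974 to 31162388, GENCODE 29 on GRCh38), protein-coding and overlapping no other gene.

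HSPA1A and HSPA1B encode the classic stress-inducible HSP70, and their proteins are nearly the same. HSPA1A stood at 13.5, 15.1 and 15.7 CPM with shfirefly and at 30.2, 30.7 and 29.99 CPM with shSIRT1, a 2.05-fold rise (log2 fold change 1.04 ± 0.07 SE, adjusted p = 7.4e-11, edgeR). HSPA1B stood at 8.04, 8.51 and 8.23 CPM and at 18.8, 17.1 and 18.0 CPM, a 2.18-fold rise (log2 fold change 1.12 ± 0.08 SE, adjusted p = 3.4e-10, edgeR). The groups of both genes were apart, but reads can be divided between such close copies or dropped from both, so their levels are uncertain. They lie near each other on the forward strand of chromosome 6, HSPA1A at 31815464 to 31817946 and HSPA1B at 31827735 to 31830255. Of the other heat-inducible copies, HSPA6 had 0.295 and 0.265 CPM (group means) and too few reads to be tested.

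HSPA8 encodes HSC70, the constitutive HSP70 of the cytosol, and it nearly doubled. Levels were 991, 1021 and 1020.3 CPM with shfirefly and 1839, 2052 and 1949 CPM with shSIRT1 (1.93-fold, log2 fold change 0.95 ± 0.04 SE, adjusted p = 4.7e-14, edgeR). It has 3 small nucleolar RNA genes inside its body on the same strand (SNORD14C, SNORD14D and SNORD14E), whose reads may be shared with it. HSPA4, a relative of HSP110, rose from 117 ± 6.28 to 189 ± 9.38 CPM (SD, n = 3 libraries), and its tissue-restricted relative HSPA4L from 7.01 ± 0.468 to 12.5 ± 0.879 CPM. HSPA14, an HSP70 relative that works at the ribosome, rose from 10.8 ± 0.837 to 18.5 ± 0.991 CPM, a gain of 1.70-fold (log2 fold change 0.77 ± 0.08 SE, adjusted p = 1e-07, edgeR). The second gene that carried the symbol HSPA14 overlaps it on the same strand and rose less (log2 fold change 0.28, adjusted p = 0.0026), and reads may be shared between them.

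The HSP70 genes that did not pass belong to other compartments. HSPA9, the mitochondrial HSP70 (mortalin), had 427, 419 and 413 CPM with shfirefly and 413, 427 and 416 CPM with shSIRT1, groups that overlapped almost fully (adjusted p = 0.96, edgeR). With scaling by library totals alone HSPA9 had a log2 fold change of 0.12 (adjusted p = 0.0033). HSPA13, a microsomal HSP70 relative, had 85.4 ± 1.54 and 81.5 ± 2.45 CPM (SD, n = 3, adjusted p = 0.20, edgeR). Correction for transcript GC content and length gave HSPA13 a log2 fold change of -0.30 (adjusted p = 5.3e-05).

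**Figure D2:**
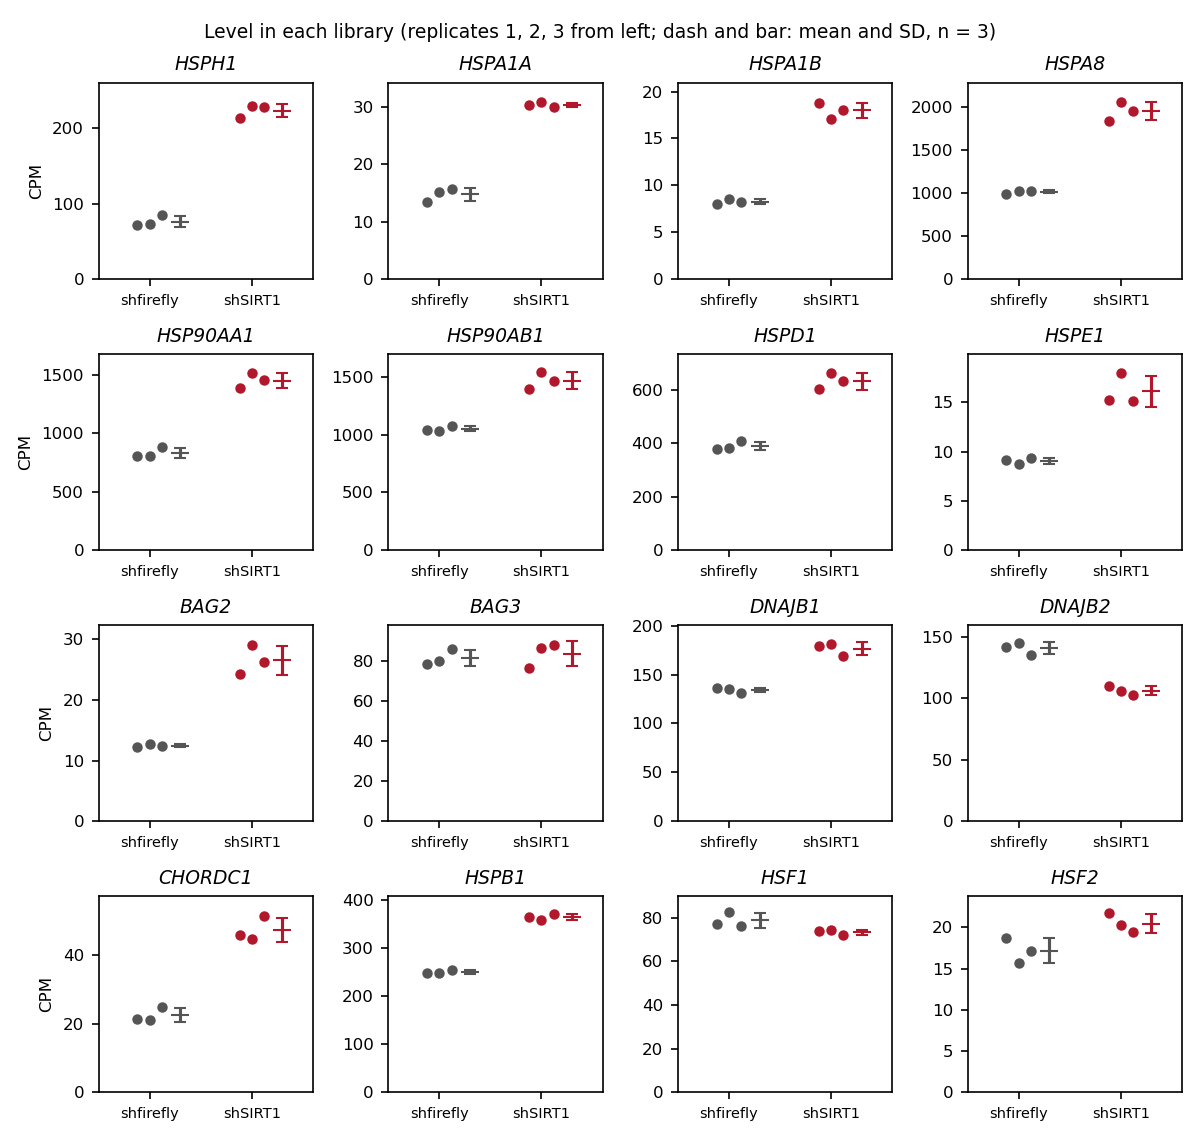
Level in CPM (y axis, from 0) of 16 chaperone and heat-shock factor genes in each library, with replicates 1, 2 and 3 from left to right and a dash and bar for the mean and SD (n = 3). HSPH1, HSPA1A, HSPA8 and HSP90AA1 show groups well apart, whereas those of BAG3 overlap and DNAJB2 runs the other way.

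Regulators of the HSP70 cycle split. BAG2, which promotes nucleotide release and restrains the ubiquitin ligase CHIP, had 12.2, 12.8 and 12.4 CPM with shfirefly and 24.3, 29.1 and 26.3 CPM with shSIRT1. The groups were apart by a wide margin (2.13-fold, log2 fold change 1.09 ± 0.08 SE, adjusted p = 1.6e-10, edgeR). HSPBP1, another exchange factor, rose by less, from 22.3, 21.6 and 21.6 CPM to 24.4, 27.3 and 27.1 CPM (log2 fold change 0.27 ± 0.07 SE, adjusted p = 0.0017, edgeR). BAG3, the heat-inducible exchange factor of selective autophagy, had 78.5, 80.1 and 85.9 CPM with shfirefly and 76.7, 86.5 and 88.3 CPM with shSIRT1. Its groups overlapped (log2 fold change 0.04 ± 0.05 SE, adjusted p = 0.56, edgeR), though library totals alone gave 0.16 (adjusted p = 0.025) and the GC and length correction 0.15 (adjusted p = 0.035). STUB1, which encodes CHIP, had 83.2 ± 1.25 and 82.7 ± 2.39 CPM, and ST13, which slows nucleotide release, had 302 ± 4.67 and 314 ± 1.66 CPM (SD, n = 3). Neither passed (adjusted p = 0.91 and 0.16, edgeR). ST13 passed as higher with library totals alone (log2 fold change 0.18). STUB1 passed as higher with library totals alone (log2 fold change 0.11) and with the GC and length correction (0.17).

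J-domain genes moved by smaller amounts and in both directions, with 9 of 13 tested genes higher, 2 lower and 2 not passing. Of all genes tested 26.8% rose and 26.0% fell. DNAJA1, the main farnesylated partner of HSC70, had 151, 143 and 160.3 CPM with shfirefly and 239.6, 254 and 242 CPM with shSIRT1. No control library came near the shSIRT1 libraries (1.62-fold, log2 fold change 0.69 ± 0.04 SE, adjusted p = 1.6e-11, edgeR). DNAJB1, the heat-inducible HSP40, had 136, 135 and 131 CPM and 179, 182 and 169 CPM, a rise of 1.32-fold (log2 fold change 0.40 ± 0.04 SE, adjusted p = 2.7e-08, edgeR). DNAJC2, a ribosome-bound J protein, had 17.8, 18.3 and 27.2 CPM with shfirefly and 39.4, 35.3 and 47.0 CPM with shSIRT1. Replicate 3 was the highest of each group for DNAJC2, and the groups were apart (log2 fold change 0.94 ± 0.22 SE, adjusted p = 0.025, edgeR). With any 1 library left out its log2 fold change was 0.82 to 1.16. The call was lost when shfirefly replicate 1 or 2 or shSIRT1 replicate 1 or 3 was left out (adjusted p of 0.052 to 0.083), and when genes with few reads were kept in (0.055).

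Smaller rises were those of DNAJA2, DNAJA3, DNAJB4, DNAJB5 and DNAJC7, between 0.16 and 0.22 on the log2 scale, and that of DNAJB11. DNAJA3 is the mitochondrial J protein, and its call was lost without shfirefly replicate 3 (adjusted p = 0.055) and without shSIRT1 replicate 2 (adjusted p = 0.061). That of DNAJB4 was lost without shfirefly replicate 1 (adjusted p = 0.056), and with the GC and length correction its log2 fold change was -0.05. That of DNAJB5 was lost when shfirefly replicate 1, or shSIRT1 replicate 2 or 3, was left out, without both libraries numbered 3, and in DESeq2 (adjusted p of 0.069 to 0.096). DNAJB6, which keeps aggregation-prone proteins soluble, did not pass (log2 fold change 0.06 ± 0.04 SE, adjusted p = 0.26, edgeR), but it passed as higher with library totals alone (0.18) and with the GC and length correction (0.11). DNAJB2, which carries ubiquitin-interacting motifs and sorts HSP70 clients to the proteasome, fell. It had 142, 145 and 135 CPM with shfirefly and 110.2, 106 and 103 CPM with shSIRT1 (1.32-fold lower, log2 fold change -0.40 ± 0.04 SE, adjusted p = 4.2e-08, edgeR), with every shSIRT1 library below every control.

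The J proteins of the endoplasmic reticulum lumen went separate ways. DNAJB9, a target of the unfolded protein response, fell from 29.8, 30.4 and 30.2 CPM to 25.9, 25.5 and 24.3 CPM (log2 fold change -0.25 ± 0.06 SE, adjusted p = 0.0011, edgeR), and with library totals alone it did not pass (adjusted p = 0.060). DNAJB11, a partner of BiP, rose from 34.8 ± 0.902 to 44.8 ± 1.73 CPM (SD over 3 libraries), or by 0.36 ± 0.05 (SE) on the log2 scale (adjusted p = 6.2e-06, edgeR). DNAJC3, an inhibitor of eIF2α kinases, had 69.9 ± 4.46 and 74.8 ± 1.10 CPM and did not pass (adjusted p = 0.10, edgeR), but it passed as higher without shfirefly replicate 3 (adjusted p = 0.021), without both libraries numbered 3 (adjusted p = 0.034) and with library totals alone (log2 fold change 0.22).

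All 3 HSP90 genes among the chaperone genes chosen here rose, where 26.8% of all genes tested rose. HSP90B1, the HSP90 of the endoplasmic reticulum, was counted in another list and fell (log2 fold change -0.27 ± 0.04 SE, adjusted p = 2.1e-06, edgeR). HSP90AA1, the inducible cytosolic form, had 809.9, 808 and 882 CPM with shfirefly and 1385, 1516 and 1453 CPM with shSIRT1 (1.74-fold, log2 fold change 0.80 ± 0.04 SE, adjusted p = 2.8e-12, edgeR). HSP90AB1, the constitutive form, had 1044, 1037 and 1081 CPM and 1398, 1548 and 1463 CPM (1.39-fold, log2 fold change 0.48 ± 0.04 SE, adjusted p = 1.2e-09, edgeR). Groups were apart for both genes. The ratio of HSP90AA1 to HSP90AB1 reads, which needs no scaling between libraries, was 0.776, 0.780 and 0.816 with shfirefly and 0.991, 0.980 and 0.993 with shSIRT1. The ratio was thus higher in all 3 shSIRT1 libraries, by 0.32 on the log2 scale (p = 0.1, two-sided, by exact permutation, the least that 3 libraries a group can give). TRAP1, the mitochondrial HSP90, rose from 57.2, 61.1 and 60.6 CPM to 86.3, 92.5 and 88.3 CPM (log2 fold change 0.58 ± 0.05 SE, adjusted p = 8.9e-10, edgeR).

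Of the 6 HSP90 co-chaperones 5 rose, where 26.8% of all genes tested rose. CHORDC1, a zinc-binding partner of HSP90 that holds the longest heat-shock array printed above, had 21.5, 21.3 and 24.9 CPM with shfirefly and 45.8, 44.8 and 51.5 CPM with shSIRT1. Its level about doubled (2.10-fold, log2 fold change 1.07 ± 0.07 SE, adjusted p = 1.5e-10, edgeR). AHSA1, the strongest known activator of the HSP90 ATPase, had 64.5, 64.4 and 73.2 CPM and 105, 115 and 110.3 CPM (log2 fold change 0.71 ± 0.05 SE, adjusted p = 7.2e-10, edgeR). STIP1, the adaptor that links HSP70 to HSP90, rose from 196 ± 11.6 to 290.3 ± 11.7 CPM (SD, n = 3). The immunophilin FKBP4 and the p23 gene PTGES3, both known from steroid receptor complexes, rose by 0.35 and 0.31 on the log2 scale. CDC37, which delivers kinases to HSP90, had 179 ± 4.22 and 186 ± 10.5 CPM and did not pass (SD, n = 3, adjusted p = 0.27, edgeR). It passed as higher with library totals alone (log2 fold change 0.18) and with the GC and length correction (0.20).

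Small heat-shock proteins hold unfolding proteins without ATP. HSPB1 (HSP27) had 247, 247 and 254 CPM with shfirefly and 364, 358 and 370.3 CPM with shSIRT1, a tight rise of 1.46-fold (log2 fold change 0.55 ± 0.04 SE, adjusted p = 3.7e-11, edgeR). HSPB8, the partner of BAG3, rose from 28.9, 27.9 and 30.3 CPM to 36.0, 35.0 and 36.7 CPM (log2 fold change 0.31 ± 0.06 SE, adjusted p = 0.00012, edgeR). CRYAB, alpha-B crystallin, was near 1 CPM with 1.12 ± 0.0714 and 0.838 ± 0.192 CPM (SD, n = 3) and did not pass (adjusted p = 0.24, edgeR).

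The mitochondrial chaperonin is built from HSP60 and its lid HSP10, encoded head to head on chromosome 2 by HSPD1 (197486581 to 197516737, reverse strand) and HSPE1 (197499994 to 197503457, forward strand). HSPD1 had 380.0, 381 and 407 CPM with shfirefly and 601, 664 and 631 CPM with shSIRT1 (1.62-fold, log2 fold change 0.70 ± 0.04 SE, adjusted p = 9.4e-12, edgeR). HSPE1 had 9.18, 8.73 and 9.32 CPM and 15.3, 18.0 and 15.1 CPM (1.78-fold, log2 fold change 0.83 ± 0.09 SE, adjusted p = 1.1e-07, edgeR). Both rose with no overlap of the groups. HSPE1 counts were very low for its partner: the ratio of HSPD1 to HSPE1 reads was 42.9 ± 1.33 with shfirefly and 39.3 ± 2.37 with shSIRT1 (SD over 3 libraries; p = 0.2, two-sided, by exact permutation). That ratio takes no account of length. Per kilobase of exon, HSPD1 had 91.8 and 149 CPM and HSPE1 4.59 and 8.16 CPM (shfirefly and shSIRT1). HSPE1 overlaps the readthrough gene HSPE1-MOB4 on the same strand and HSPD1 on the other. The part of this overlap in the low HSPE1 count was not tested.

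All 8 genes of TRiC, whose subunits assemble into a double ring of fixed make-up, rose, against 26.8% of all genes tested. CCT6A had 249.97, 251 and 272 CPM with shfirefly and 406, 435 and 414 CPM with shSIRT1 (log2 fold change 0.70 ± 0.04 SE, adjusted p = 7e-12, edgeR). CCT2 had 121, 122 and 132 CPM and 188, 212 and 196 CPM (log2 fold change 0.67 ± 0.05 SE, adjusted p = 3.2e-10, edgeR). CCT3, CCT5 and TCP1 rose by 0.57 to 0.62 on the log2 scale and CCT4 and CCT7 by 0.40 and 0.37. CCT8 moved the least, from a mean of 234 to 264 CPM (log2 fold change 0.17 ± 0.04 SE, adjusted p = 0.00031, edgeR), still with every shSIRT1 library above every control. The rises of subunit mRNAs thus ranged from 1.13-fold for CCT8 to 1.62-fold for CCT6A.

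HSF1 and HSF2 moved little. HSF1, the main activator of the heat-shock response, had 77.3, 82.5 and 76.3 CPM with shfirefly and 73.7, 74.1 and 71.9 CPM with shSIRT1. Its shSIRT1 libraries were the lower ones, but the difference did not pass (log2 fold change -0.10 ± 0.04 SE, adjusted p = 0.059, edgeR). HSF1 passed as lower with at least 1 CPM in 3 libraries as the filter (adjusted p = 0.036), with the replicate number as a block (adjusted p = 0.036) and without shfirefly replicate 3 (adjusted p = 0.019). HSF2 had 18.8, 15.6 and 17.2 CPM and 21.7, 20.3 and 19.4 CPM (log2 fold change 0.25 ± 0.08 SE, adjusted p = 0.0099, edgeR), groups that stood close but apart. The call for HSF2 was lost without shfirefly replicate 2 (adjusted p = 0.068), without shSIRT1 replicate 1 (adjusted p = 0.057) and with the GC and length correction (adjusted p = 0.11). Activity of HSF1 is set after translation, and mRNA does not measure it. Of 8 further heat-shock factor and partner genes 6 were tested, and 3 fell, where 26.0% of all genes tested fell. The 3 were HSF4 (log2 fold change -0.84 ± 0.14 SE), HSF2BP (-0.50 ± 0.15 SE) and HSBP1 (-0.10 ± 0.04 SE).

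Summed chaperone mRNA was higher in shSIRT1, 1.45-fold in scaled CPM and 1.57-fold as a share of library totals. The 53 genes summed to 8339, 8407 and 8699.9 CPM with shfirefly and to 11803, 12713 and 12267 CPM with shSIRT1. Every class had a higher sum in all 3 shSIRT1 libraries than in any control except the heat-shock factors, at 95.9 ± 2.33 and 93.7 ± 2.10 CPM (SD, n = 3). The HSP70 and HSP110 class rose 1.68-fold, the mitochondrial chaperonin 1.63-fold, HSP90 1.55-fold, the small heat-shock proteins 1.43-fold, TRiC 1.42-fold and the HSP90 co-chaperones 1.31-fold in summed CPM. J-domain genes rose 1.17-fold and the regulators of HSP70 1.07-fold in summed CPM. Single genes supplied most of some sums. In shSIRT1, HSPA8 held 1947 of the 2939 CPM of its class, HSPD1 632 of 648 and HSPB1 364 of 401 (group means). Per kilobase of exon, HSP90AB1 had the highest level of the 53 genes in both groups (354 and 493 CPM per kilobase). Next came HSPA8 (208 and 401), HSP90AA1 (159 and 277) and HSPB1 (153 and 223). The order of the first pair depends on the length used: per kilobase of the longest transcript, HSPA8 (410.4 and 790.3) stood above HSP90AB1 (394 and 549.6). Per kilobase of exon the inducible HSPA1A (5.95 and 12.2 CPM per kilobase) and HSPA1B (3.28 and 7.14) had low counts in both groups. Whether counting dropped reads that match both of these near-identical genes was not tested, so their levels may be higher.

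**Figure D3:**
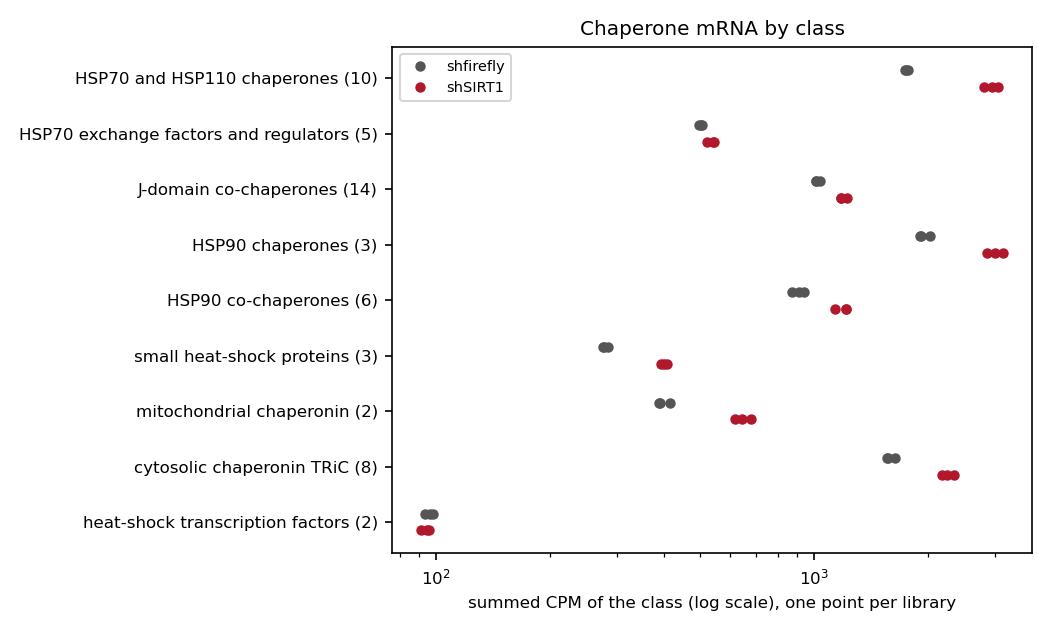
Summed CPM of each chaperone class (x axis, log scale) in each of the 3 shfirefly (grey) and 3 shSIRT1 (red) libraries, with the number of genes in brackets. The HSP70 and HSP110 class shows the widest separation, and the heat-shock factors are the class whose libraries overlap.

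By compartment, 34 of 42 tested chaperone genes of the cytosol and nucleus rose (median log2 fold change 0.44) and 4 of 5 mitochondrial ones (median 0.58). Among all genes tested 26.8% rose and 26.0% fell. Of the 4 chaperone genes in the endoplasmic reticulum 1 rose, 1 fell and 2 did not pass (median 0.01). Folding and unfolded protein response genes of the endoplasmic reticulum outside this family ran lower, with 19 of 25 down, 3 up and 3 not passing (median -0.32). DDIT3, the stress factor CHOP, fell by 1.58 and the disulfide oxidase ERO1A by 0.90 on the log2 scale, while SDF2L1 (0.47 ± 0.09 SE) and MANF (0.32 ± 0.05 SE) rose. HSPA5 and HSP90B1, the reticulum's own HSP70 and HSP90 (chosen after their values were seen), fell, to 1195 ± 19.6 from 1552 ± 14.9 CPM and to 1384 ± 22.1 from 1668 ± 63.4 CPM (SD, n = 3, log2 fold changes -0.38 and -0.27). Of their relatives elsewhere, HSPA8, HSP90AA1 and the mitochondrial TRAP1 rose in the same libraries, and the mitochondrial HSPA9 did not pass. Proteasome subunit genes, whose products degrade what chaperones cannot refold, rose in 28 of 31 cases with a median of 0.31, led by PSMD1 (0.71 ± 0.04 SE) and PSMD11 (0.62 ± 0.05 SE).

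Related folding genes, of the cytosol and other compartments, moved in both directions. Rises outnumbered falls in the HSP90 co-chaperone and chaperonin helper lists by more than in the J-domain list. Shares of all genes tested were nearly even (26.8% higher and 26.0% lower). Of 23 further HSP90 co-chaperone genes 13 rose, 3 fell and 7 did not pass (median 0.24). RPAP3, of the complex that assembles RNA polymerases, rose by 1.07 ± 0.14 (SE) and NUDC by 0.61 ± 0.04 on the log2 scale, whereas the membrane immunophilin FKBP8 fell by 0.74. Of 28 tested J-domain genes outside the 14 above 10 rose, 6 fell and 12 did not pass (median 0.01), with DNAJB14 (0.70 ± 0.15 SE) among the rises and DNAJC18 (-0.67 ± 0.09 SE) and DNAJC4 (-0.62 ± 0.08 SE) lowest. Of 18 prefoldin, tubulin cofactor and chaperonin helper genes 8 rose and 2 fell (median 0.17). The TRiC helper PDCL3 (0.60 ± 0.08 SE) and TXNDC9 (0.39 ± 0.06 SE) rose the most, and the prefoldin subunit PFDN5 (-0.28 ± 0.04 SE) and UXT (-0.23 ± 0.06 SE) fell. With library totals alone, 14 of these 18 rose and 1 fell.

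Of 12 mitochondrial folding and protease genes 2 rose, 3 fell and 7 did not pass (median 0.07). Among all genes tested 26.8% rose and 26.0% fell. LONP1, the main matrix protease, fell by 0.47 on the log2 scale and TIMM44 by 0.17, while AFG3L2 (0.43 ± 0.04 SE) and YME1L1 (0.12 ± 0.04 SE) rose. Library totals alone gave 5 higher and 1 lower in this list. Of 6 tested further HSP70 relatives and exchange factors BAG4 rose (0.23 ± 0.05 SE) and BAG1 (-0.22 ± 0.07 SE) and BAG6 (-0.14 ± 0.04 SE) fell. The GC and length correction gave 0 higher and 1 lower in this list, and library totals alone 3 higher and 0 lower. The small heat-shock genes HSPB6 and HSPB11 did not pass, and 6 more had too few reads.

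Heat-inducible genes whose products are not chaperones of these classes did not rise together. Of 10 such genes 3 rose, 5 fell and 2 did not pass (median -0.16), where 26.8% of all genes tested rose and 26.0% fell. CACYBP (0.48 ± 0.04 SE) and the mitochondrial ribosomal protein gene MRPL18 (0.36 ± 0.05 SE) rose the most. HMOX1, heme oxygenase, fell from 247, 260.4 and 249 CPM to 114, 98.7 and 107 CPM (log2 fold change -1.24 ± 0.05 SE, adjusted p = 4.7e-14, edgeR). HMOX1 also answers to other stress factors. With library totals alone or the GC and length correction, 3 of these genes fell.

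**Figure D4:**
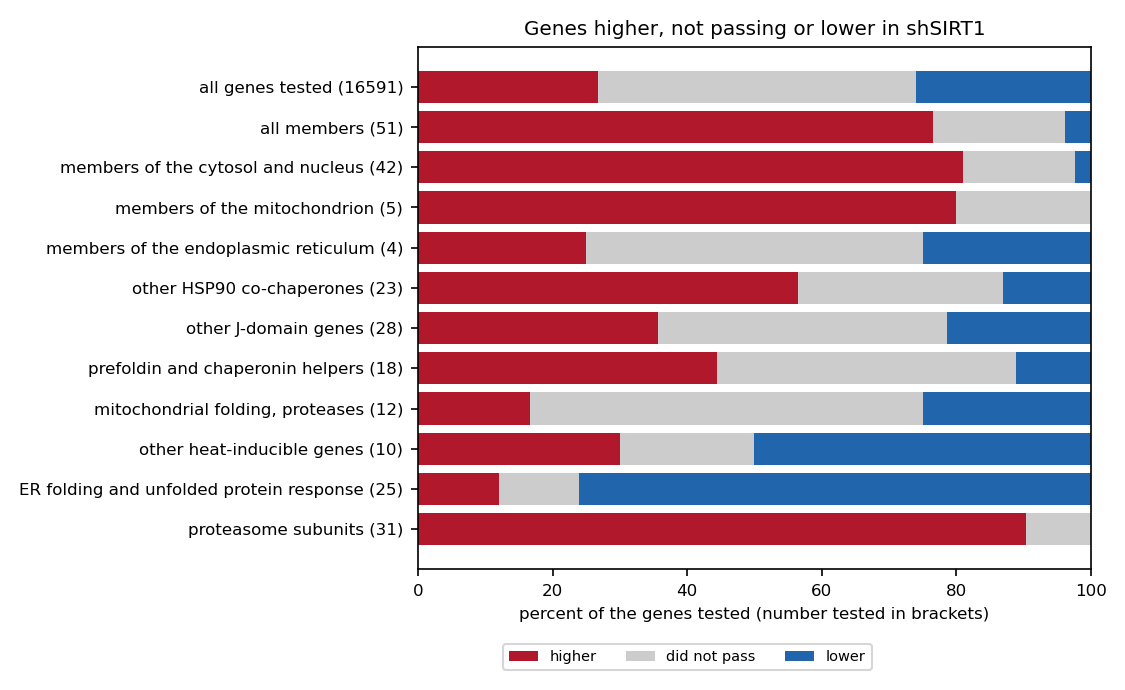
Percent of tested genes (x axis) that were higher (red), did not pass (grey) or were lower (blue) in shSIRT1, for all genes, the chaperone genes (drawn as members), their compartments and related gene lists, with the number tested in brackets. The chaperone genes of the cytosol and the proteasome subunits are mostly red, and the genes of the endoplasmic reticulum outside the family mostly blue.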

How the data were processed

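RNA-seq of 6 SW1353 libraries (3 a group) was used. The submitters' processing notes name the tools Trimmomatic, STAR and DESeq2 and the build GRCh38. Their versions, the counter, its annotation and its strand setting were not given in the sources used here. The deposited table holds raw read counts per gene, per the file headers. Its normalized counts, rounded by the authors and treated as a score, entered no test. The authors' log2 fold change and adjusted p-value, per the file headers, are quoted only where named. Genes were filtered by edgeR 4.0.16 filterByExpr, scaled by TMM (factors 0.948 to 1.048) and tested by the robust quasi-likelihood F test on group. P-values were adjusted by Benjamini-Hochberg over all 16591 genes. SE is the absolute log2 fold change over the square root of F. Replicates are biological per the design text; chi-square per gene was 2.79 to 6.05 within groups and 57.4 to 89.9 between them. Coordinates and exon lengths came from GENCODE 29, promoters from RefSeq. Of the 53 genes 19 overlap a gene on the same strand and 29 one on the other, so reads may be shared. The 53 genes and 10 related lists were chosen with earlier results of these data known. Values per library were given for 11 preset genes and, per class, the 2 largest rises and falls among called genes. For related lists, the same rule named up to 2 rises and 2 falls. Some genes that this rule names are not reported here. Planned protein comparisons were not made, since no protein table was used here. When the procedure was tested on simulated counts with 200 changed genes, small changes were often missed (32% recovered at 1.2-fold). False calls ran above the nominal share, most of all for small changes (17.9% of calls at 1.2-fold). In the data 52.8% of genes passed, far more than were changed in the simulation, so these rates need not hold there.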

Additional observations from a re-analysis of the deposited data

How the results depend on the processing

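Of the 41 chaperone genes called, 35 (34 of them higher) kept direction and call under all 15 alternatives. The count of higher chaperone genes ran from 36 to 39 when 1 library was left out and was 46 with library totals alone, 38 in DESeq2 and 41 with the GC and length correction. The count of lower ones was 1 with library totals alone, and 2 to 3 with 1 library left out. Library totals alone put the all-gene median at 0.13 on the log2 scale. Calls that were lost or gained are given with each gene in the report, except that those changed by the GC and length correction changed likewise when the replicate block was added to it. Their cause was not tested.

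Values that changed sign, and passed in the report or under the alternative, were those of HSPA9 (0.12) and STUB1 (0.11) with library totals alone, of DNAJB4 with the GC and length correction (-0.052, and -0.057 with the replicate block as well), and of STUB1 with that correction (0.17, also with the block). HSF1 (0.019 with library totals alone, 0.048 with the GC and length correction), HSPA13 (0.054 with library totals alone), DNAJC3 (-0.039) and ST13 (-0.017, both with that correction) also changed sign and passed neither in the report nor there, and STUB1 and HSPA9 crossed 0 without passing in further settings. With library totals alone the log2 ratio of summed CPM was 0.65 for all chaperone genes, 0.87 for HSP70 and HSP110, 0.75 for HSP90, 0.82 for the mitochondrial chaperonin, 0.64 for small heat-shock proteins, 0.35 for J-domain genes, 0.21 for HSP70 regulators, 0.51 for HSP90 co-chaperones and 0.63 for TRiC. It was 0.68 for the cytosol, 0.51 for mitochondria and 0.16 for the endoplasmic reticulum, and it reversed for the heat-shock factors, from -0.03 to 0.088. These shifts of sums follow from the scaling itself.

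Related lists moved as follows. Library totals alone gave 3 higher and 0 lower among further HSP70 relatives and exchange factors, 14 higher and 1 lower among prefoldin and chaperonin helpers, 5 higher and 1 lower among mitochondrial folding genes, 2 higher among heat-shock factor partners and 3 lower among other heat-inducible genes. The GC and length correction gave 0 higher and 1 lower among HSP70 relatives, 5 lower among HSP90 co-chaperones, 1 higher among heat-shock factor partners, 3 lower among heat-inducible genes and 1 lower among proteasome subunits. With the replicate block added to that correction, these counts were 0 and 1, 5, 2, 3 and 1. Without both libraries numbered 3, 2 HSP70 relatives were higher. With 1 library left out, 1 to 2 were higher and 1 to 2 lower, with 1 lower without shfirefly replicate 2 or without shSIRT1 replicate 1 and 2 higher without shSIRT1 replicate 3. The log2 difference in the HSP90AA1 to HSP90AB1 ratio stayed between 0.31 and 0.34 with 1 library left out, and that of HSPD1 to HSPE1 between -0.17 and -0.08. By length of the longest transcript, an alternative chosen after seeing the data, HSPA8 ranked 1 and HSP90AB1 ranked 2 in both groups, and HSPB1 ranked 5 in shSIRT1. A window ending at the start held the run of 3 heat-shock units in 6 genes in place of 7.

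Same-numbered libraries correlated at 0.02, -0.03 and 0.19 in their deviations from group means, and other pairs at -0.17 to 0.17. These values show no clear pairing by number, but with 3 libraries a group they cannot exclude it. With the replicate block 39 chaperone genes rose and 3 fell, the added one being HSF1. Counts limit low genes: HSPA2 and DNAJA4 could not be tested.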
